A study of Bos taurus and Bos indicus with 12 samples.

Results

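The acute phase and antimicrobial protein genes described here are SAA3, HP, LBP, LTF, TAP and LAP, measured in bovine skin. They were chosen by name, as all probe sets whose platform symbol was 1 of these 6, which gave 6 of 9155 named genes and 7 of the 24128 probe sets on the array: 2 for LTF and 1 for each other gene. A probe set is a group of short probes that report on 1 transcript. Its value here is a log2 expression level made by the authors with RMA, so a difference of 1 is a doubling, and levels of different probe sets cannot be set against each other.

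Full-thickness punch biopsies of skin came from 12 female cattle, and each RNA was hybridised to its own Affymetrix array. The cattle were Holstein-Friesian, which are taurine dairy animals, or Brahman, which are of zebu (indicine) descent. Tick-naive animals had never been exposed to the cattle tick Rhipicephalus microplus, while tick-infested animals had been through repeated heavy infestations and were sampled where young larvae had attached. Each of the 4 groups held 3 animals: naive Holstein-Friesian, aged 12 months, naive Brahman, aged 18 months, and infested animals of each breed, all aged 6 months. Infestation and age therefore cannot be told apart within either breed, and the naive breeds differed in age as well. Arrays are named by group and by the number in their label.

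The acute phase response is the change in blood proteins that follows infection or injury, driven largely by interleukin-1, interleukin-6 and tumour necrosis factor acting on the liver. Serum amyloid A, haptoglobin and lipopolysaccharide-binding protein are among its best known products in cattle. SAA3 is also made outside the liver, by epithelia among other tissues. Lactoferrin and the beta-defensins TAP (tracheal antimicrobial peptide) and LAP (lingual antimicrobial peptide) act directly on microbes at epithelial surfaces, and lactoferrin is also stored in the secondary granules of neutrophils.

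The arrays carried the keratin of the basal epidermis, KRT14, at group means of 14.31 to 14.46. None of the 5 measured keratinocyte markers passed the test in either breed. Among all named genes 3.13% passed as higher and 2.84% as lower in Holstein-Friesian, and 8.50% and 11.2% in Brahman. Some arrays stood apart in RNA integrity or in muscle signal. The RNA integrity index, the mean signal of control probes at the 5′ end of transcripts minus that at the 3′ end, lay between -1.39 and -0.75 on 8 arrays. It was -4.91, -2.56 and -2.07 on infested Brahman 1, 2 and 3 and -2.73 on infested Holstein-Friesian 1. Every infested Brahman array thus lay below every naive Brahman array, where the index was -1.04 to -0.85. In Brahman the index therefore went with infestation, and a fit with the index as a covariate cannot fully separate them. Of 5 measured skeletal muscle markers, 4 were highest on naive Brahman 2 and 3, the exception being CKM. In whole skin, a lower level can come from fewer cells of a type or from less RNA per cell, and these cannot be told apart.

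LBP was the member whose level separated infested from naive skin in both breeds. It encodes lipopolysaccharide-binding protein, which carries bacterial lipopolysaccharide to CD14. Its level in naive Holstein-Friesian skin was 4.01, 4.02 and 4.16, and in infested Holstein-Friesian skin 4.76, 4.50 and 4.77. In naive Brahman skin it was 4.12, 4.19 and 4.09, and in infested Brahman skin 5.09, 4.34 and 4.98. All 6 infested arrays were above all 6 naive arrays, which was so, in this direction, for 6.00% of all probe sets tested. Infested Brahman 2 was the lowest infested array and stood close above the naive ones.

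LBP was higher in infested than in naive skin by 0.64 ± 0.13 log2 (SE; 95% interval 0.36 to 0.92), or 1.56-fold, as the mean of the breeds, with an adjusted p of 0.00505 in limma's test with Benjamini-Hochberg adjustment. Within Brahman the difference was 0.67 ± 0.18 (1.59-fold, adjusted p = 0.0277), and within Holstein-Friesian 0.61 ± 0.18 (1.53-fold, adjusted p = 0.0811), which did not pass the threshold of 0.05. The mean difference passed in all 12 fits that left out 1 array, with adjusted p between 0.000818 and 0.015. It did not pass when the RNA integrity index was a covariate (0.49, adjusted p = 0.0633). The Brahman call was lost when any 1 naive Brahman array, infested Brahman 1 or infested Brahman 3 was left out, where the adjusted p reached 0.0865, and with the index as a covariate (0.41, adjusted p = 0.355). The LBP signal lay between the 9.99th and the 25.6th percentile of its arrays, so the probe set was dim throughout.

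**Figure D1:**
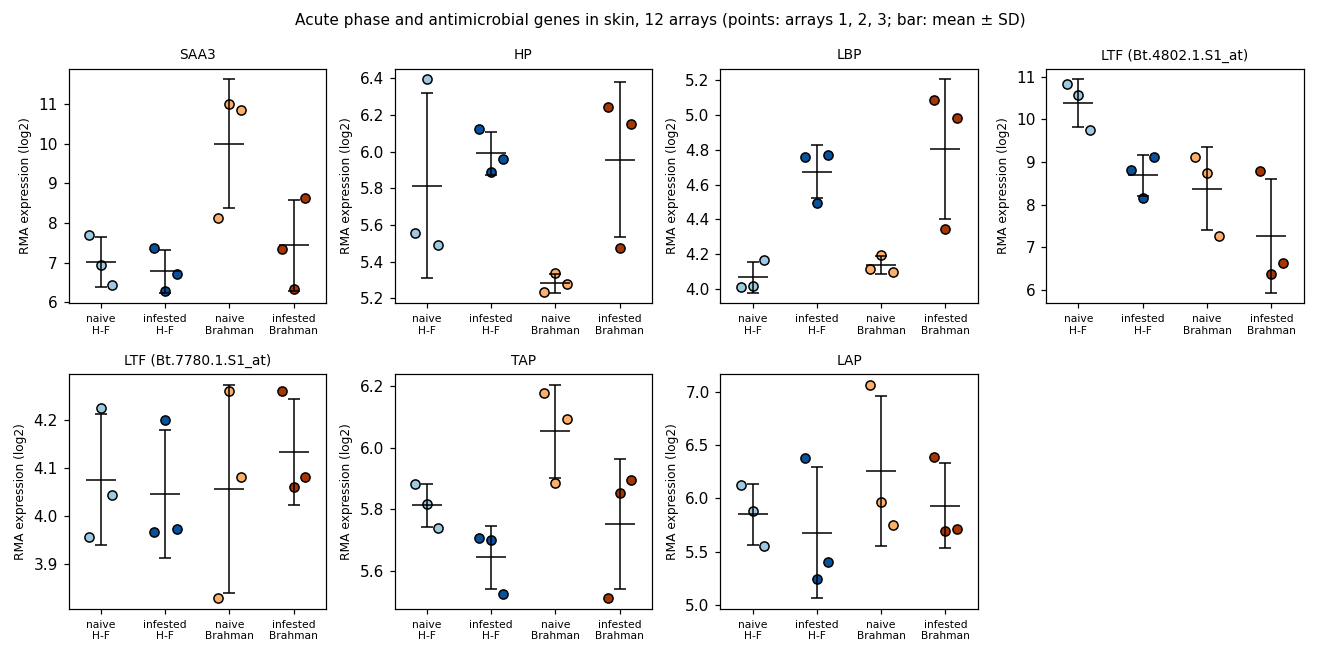
RMA expression in log2 (y axis) of the 7 probe sets in naive and infested skin of both breeds (x axis; H-F, Holstein-Friesian). Points are arrays 1, 2 and 3 from left to right, and bars are the mean ± SD of 3 arrays. LBP on every infested array lies above every naive array, whereas SAA3 is high on naive Brahman 2 and 3 alone.

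SAA3 was the member with the largest range, from 6.28 to 11.02 over the 12 arrays, and it fell in Brahman skin. It encodes serum amyloid A3, an apolipoprotein of the acute phase. Its level was 8.12, 11.02 and 10.87 in naive Brahman skin and 7.34, 6.33 and 8.63 in infested Brahman skin. In naive Holstein-Friesian skin it was 7.69, 6.93 and 6.42, and in infested Holstein-Friesian skin 7.36, 6.28 and 6.70. Naive Brahman 2 and 3 stood more than 2 log2 units above every other array, while naive Brahman 1 lay below infested Brahman 3, so the Brahman groups overlapped. The Holstein-Friesian groups overlapped over most of their range.

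In Brahman, SAA3 was 5.94-fold lower in infested skin (log2 difference -2.57 ± 0.76, SE; 95% interval -4.24 to -0.90), with an adjusted p of 0.037 in limma. In Holstein-Friesian the difference was -0.23 ± 0.76 (-1.90 to 1.44, adjusted p = 0.898). The difference between the breeds in this effect was -2.34 ± 1.07, with an unadjusted p of 0.0521 and an adjusted p of 0.662, so the breeds were not shown to differ. The Brahman call passed in 6 of 12 fits that left out 1 array. Without naive Brahman 2 or naive Brahman 3 the difference was -2.06 and -2.14, with adjusted p of 0.128 and 0.135, and without naive Brahman 1 it was -3.51, with an adjusted p of 0.00798. It was also lost without infested Brahman 1 or 2 (adjusted p = 0.0677 and 0.11), with the replicate number as a block (0.0554) and with the RNA integrity index as a covariate (0.195).

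The genes with profiles most like that of SAA3 were genes of striated muscle. The measure was the SD, over the 12 arrays, of the difference between 2 mean-centred log2 profiles. It was 0.53 for MYH1, a fast myosin heavy chain, 0.75 for MYL11, a fast myosin light chain, and 0.85 to 0.86 for MYOZ2, SMPX and MYL1, against an SD of 1.63 for SAA3 itself. The MYH1 probe set found this way, 1 of 8 for that gene, was 5.15, 8.02 and 7.96 on naive Brahman 1, 2 and 3, and between 3.83 and 4.92 on the other 9 arrays. The brightest MYH1 probe set was nearly flat, at 4.49 to 5.34. ACTA1, skeletal muscle actin, was 4.84, 10.32 and 10.59 on the naive Brahman arrays, but also 8.14 and 6.52 on naive Holstein-Friesian 2 and 3, where SAA3 was low. The 2 arrays of highest SAA3 thus also read highest for these muscle probe sets, while 2 further arrays had raised muscle actin without raised SAA3.

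The skeletal muscle level, the mean over 5 measured markers relative to the naive arrays, was -0.94, 0.81 and 1.20 on naive Brahman 1, 2 and 3. CKM, muscle creatine kinase, ran the other way from the other 4 markers. It was 8.61 and 8.59 on naive Brahman 2 and 3 against 9.28 to 10.56 on infested arrays, and was higher in infested Brahman skin by 1.25 (adjusted p = 0.01 in limma), with its other probe set lower (-1.96). The level of the list was -1.02 to -0.55 on infested Holstein-Friesian, -0.76 to -0.50 on infested Brahman and -0.86 to 0.23 on naive Holstein-Friesian arrays. Naive Brahman 2 and 3, the arrays of highest muscle level, are also those of highest SAA3, so a smaller difference without them follows from the choice and tests nothing. The SAA3 difference between naive Brahman 1 alone and the infested Brahman arrays was -0.69. With the muscle level as a covariate it was -1.65, with an adjusted p of 0.246. Both settings were chosen after seeing the data. The covariate is itself highest on naive Brahman 2 and 3, so the smaller difference with it cannot decide anything about SAA3. On the chromosome SAA3 lies beside SAA2 and SAA4, genes of the same family. SAA4 had a probe set under its own symbol, and cross-hybridisation of other copies to the SAA3 probe set was not tested.

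**Figure D2:**
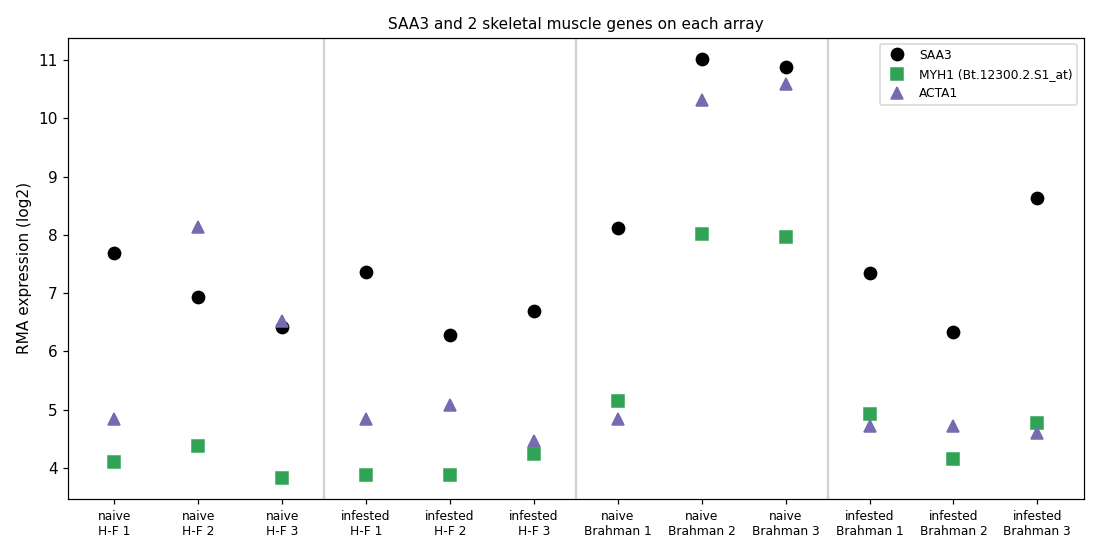
RMA expression in log2 (y axis) of SAA3, MYH1 (the probe set most like SAA3) and ACTA1 on each of the 12 arrays (x axis; H-F, Holstein-Friesian), 1 point for each gene and array. All 3 are highest on naive Brahman 2 and 3, and ACTA1 is also raised on naive Holstein-Friesian 2 (8.14), where SAA3 is 6.93.

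HP encodes haptoglobin, which binds free haemoglobin. Its level was 5.23, 5.34 and 5.28 in naive Brahman skin and 6.24, 5.47 and 6.15 in infested Brahman skin. In naive Holstein-Friesian skin it was 5.56, 6.39 and 5.49, and in infested Holstein-Friesian skin 6.12, 5.89 and 5.96. The Brahman groups did not overlap, and the naive Brahman arrays varied with an SD of 0.051. In Holstein-Friesian the highest array, naive 2, and the lowest, naive 3, were both naive. The Brahman difference was 0.67 ± 0.25 (SE; 95% interval 0.12 to 1.23), or 1.60-fold, with an adjusted p of 0.0831 in limma, and did not pass. It passed without naive Holstein-Friesian 2 (adjusted p = 0.0403), through the shared estimate of the spread, and without infested Brahman 2 (0.92, adjusted p = 0.0316). The Holstein-Friesian difference was 0.18 ± 0.25 (-0.38 to 0.73, adjusted p = 0.741).

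LTF encodes lactoferrin, which binds iron and so keeps it from microbes. Its brighter probe set read 10.82, 10.56 and 9.75 in naive Holstein-Friesian skin and 8.80, 8.17 and 9.11 in infested Holstein-Friesian skin. In Brahman it read 9.12, 8.74 and 7.27 in naive skin and 8.79, 6.37 and 6.64 in infested skin. The Holstein-Friesian groups did not overlap and the Brahman groups did, with infested Brahman 1 among the naive arrays. The other LTF probe set stayed between 3.83 and 4.26 on all 12 arrays, with group means of 4.05 to 4.13, and showed no such spread.

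On the brighter probe set LTF was lower in infested skin by 2.63-fold as the mean of the breeds (-1.40 ± 0.45 log2, SE; 95% interval -2.38 to -0.41; adjusted p = 0.0395 in limma). Within Holstein-Friesian the difference was -1.69 ± 0.64, or 3.22-fold (adjusted p = 0.152), and within Brahman -1.11 ± 0.64, or 2.15-fold (adjusted p = 0.241), and neither passed. The call on the mean was lost in 9 of 12 fits that left out 1 array, where the adjusted p was 0.0515 to 0.0908. It held without naive Holstein-Friesian 3, naive Brahman 3 or infested Brahman 1, with adjusted p of 0.0428, 0.0226 and 0.00354. Within Holstein-Friesian, LTF passed when the 6 arrays of that breed were fitted alone (adjusted p = 0.0409) and with the RNA integrity index as a covariate (0.0415). Within Brahman it passed without infested Brahman 1 (adjusted p = 0.0271), and with the index as a covariate it was -2.53 (0.06). With both probe sets averaged, the mean difference was -0.69 (adjusted p = 0.0515).

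Profiles most like that of LTF belonged to DECR1, a mitochondrial enzyme of fatty acid oxidation, and to S100A9, a calcium-binding protein abundant in neutrophils, with SDs of the difference of 0.74 and 0.83 log2. Of the 6 neutrophil markers measured, with LTF left out of the list, 2 in Holstein-Friesian were higher in infested skin, MMP9 and TREM1, and none was lower. In Brahman none passed in either direction, with differences of -0.85 for CXCR1 (adjusted p = 0.182) and -0.94 for S100A12 (0.143) among them. The neutrophil marker level was 0.22 to 0.66 on infested Holstein-Friesian arrays and -0.16 to 0.22 on naive arrays of both breeds. On infested Brahman 1, 2 and 3 it was 0.25, -0.12 and -0.38, and the lower 2, below every naive Brahman array, were those of low LTF. Naive Holstein-Friesian 1 and 3, at -0.16 and -0.15, were lower than infested Brahman 2, yet read LTF at 10.82 and 9.75. Of 7 markers of sweat and sebaceous gland epithelium, 4 were lower in infested skin in each breed, and 1, AQP5, was higher in Brahman. Over all named genes 3.13% were higher and 2.84% lower in Holstein-Friesian, and 8.50% were higher and 11.2% lower in Brahman. The part of neutrophil and gland transcripts in the LTF difference was not tested.

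TAP and LAP did not pass the test in either breed. TAP read 5.88, 5.82 and 5.74 in naive and 5.71, 5.70 and 5.53 in infested Holstein-Friesian skin. In Brahman it read 6.18, 5.89 and 6.09 in naive and 5.51, 5.85 and 5.90 in infested skin. The Holstein-Friesian groups did not overlap, by a narrow gap, and in Brahman infested 3 lay just above naive 2. The TAP difference was -0.17 ± 0.14 in Holstein-Friesian (adjusted p = 0.534) and -0.30 ± 0.14 in Brahman (95% interval -0.61 to 0.01, adjusted p = 0.157).

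LAP read 6.12, 5.88 and 5.55 in naive and 6.38, 5.24 and 5.40 in infested Holstein-Friesian skin. In Brahman it read 7.07, 5.97 and 5.75 in naive and 6.39, 5.69 and 5.71 in infested skin. Array 1 was the highest of its 3 in every group, and the groups overlapped in both breeds. The LAP difference was -0.18 ± 0.38 in Holstein-Friesian (-1.01 to 0.66, adjusted p = 0.838) and -0.33 ± 0.38 in Brahman (-1.17 to 0.51, adjusted p = 0.575). Both intervals are wide and span 0, so a change of either sign within them was not excluded. With the RNA integrity index as a covariate the LAP difference in Brahman was -1.18 (adjusted p = 0.132). TAP and LAP lie among other beta-defensin genes of like sequence, so cross-hybridisation between copies was not tested and their levels are uncertain.

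Counted over the 7 probe sets, none passed in Holstein-Friesian with limma, against 5.02% of all 24016 probe sets tested, and 2 had an unadjusted p under 0.05. In Brahman 2 passed, SAA3 lower and LBP higher, against 19.8% of all probe sets (10.2% lower and 9.54% higher). As the mean of the breeds 2 passed, LBP higher and LTF lower, against 27.9% (13.6% higher and 14.2% lower). On that mean the differences of SAA3 (-1.40, adjusted p = 0.0736), HP (0.43, adjusted p = 0.0994), TAP (-0.23, adjusted p = 0.103) and LAP (-0.25, adjusted p = 0.518) did not pass. Infested and naive arrays did not overlap for 3 of 7 in Holstein-Friesian, against 30.3% of all probe sets, and for 2 of 7 in Brahman, against 38.5%. With 7 probe sets, these counts are near the background. The median difference over the 7 was -0.17 in Holstein-Friesian and -0.30 in Brahman, against -0.03 and 0.04 over all probe sets.

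**Figure D3:**
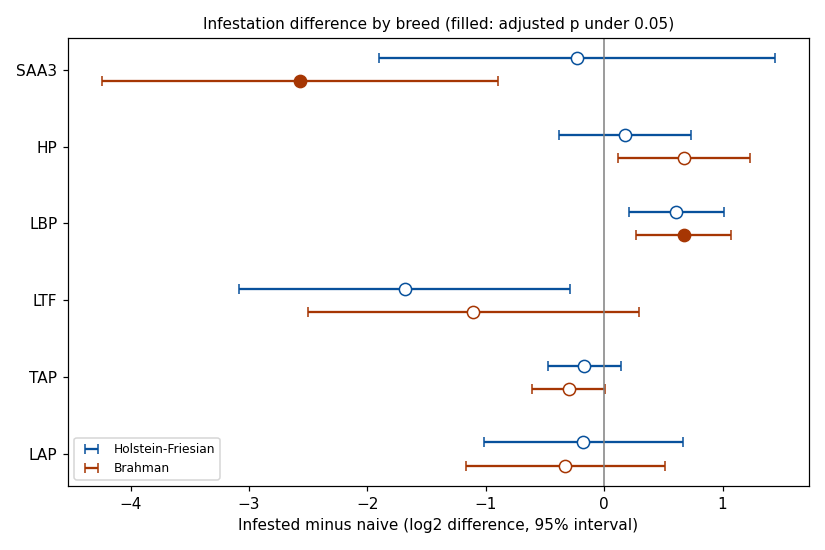
Infested minus naive difference in log2 (x axis) for the 6 genes (y axis; LTF by its brighter probe set) in Holstein-Friesian and Brahman, with bars for 95% intervals from the limma fit. Filled points passed an adjusted p of 0.05: SAA3 (-2.57) and LBP (0.67) in Brahman.

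Between the breeds, SAA3 and LTF differed most among naive animals, in opposite directions. SAA3 was higher in naive Brahman than in naive Holstein-Friesian skin by 2.99 ± 0.76 log2 (SE; 7.96-fold), the difference that ranked 9 by size among the 24016 probe sets, yet its adjusted p in limma was 0.396. LTF was 4.01-fold lower in naive Brahman skin (-2.00 ± 0.64, adjusted p = 0.666), and ranked 38. The HP difference was -0.53 and the TAP difference 0.24, each with an adjusted p of 1. The naive groups did not overlap for these 4 of 7 probe sets, against 14.5% of all. None of the 7 passed, against 0.0250% of all probe sets, and 2 had an unadjusted p under 0.05. SAA3 passed with array weights (3.46, adjusted p = 0.0173) and, of 12 fits that left out 1 array, in the 1 without naive Brahman 1 (3.93, adjusted p = 0.0434). It passed in no other setting run, and naive Brahman 1 alone stood 1.11 above the naive Holstein-Friesian mean. The naive breeds also differed in age, by 12 against 18 months.

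Among infested animals, all of 1 age, none of the 7 passed, against 0.167% of all probe sets, and 1 had an unadjusted p under 0.05. The arrays of the breeds overlapped for every one of the 7, against 13.4% of probe sets without overlap. LTF differed by -1.43 ± 0.64 (Brahman minus Holstein-Friesian, adjusted p = 0.377) and SAA3 by 0.65 ± 0.76 (adjusted p = 0.727). For the difference between the breeds in the infestation effect, none passed, against 0.00416% of all probe sets, and none had an unadjusted p under 0.05. The adjusted p of the 7 lay between 0.662 and 0.959.

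CD14 and BPI, which like LBP deal with lipopolysaccharide, were higher in infested skin of both breeds, while TLR4, TLR2 and MYD88 did not pass. TLR4, the signalling receptor for lipopolysaccharide, differed by 0.94 in Holstein-Friesian (adjusted p = 0.198 in limma) and 0.02 in Brahman (0.982). TLR2, which senses bacterial lipoproteins, differed by 0.89 (0.185) and 1.12 (0.0513), and the adaptor MYD88 by 0.13 (0.731) and -0.17 (0.544). CD14, the receptor to which LBP passes lipopolysaccharide, read 7.69, 8.47 and 7.79 in naive and 9.89, 10.65 and 10.08 in infested Holstein-Friesian skin. In Brahman it read 7.37, 8.29 and 8.43 in naive and 9.66, 9.14 and 9.76 in infested skin. No infested array overlapped a naive one. CD14 rose 4.67-fold in Holstein-Friesian (2.22, adjusted p = 0.00698 in limma) and 2.81-fold in Brahman (1.49, adjusted p = 0.0107), and both calls passed in all 12 fits that left out 1 array. These values are from the brighter of its 2 probe sets. The other was higher by 1.43 in Holstein-Friesian, where it passed, and by 0.58 in Brahman, where it did not.

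BPI, bactericidal permeability-increasing protein, binds lipopolysaccharide, and its gene neighbours LBP on the chromosome. It read 5.15, 5.19 and 4.90 in naive and 5.75, 5.56 and 5.86 in infested Holstein-Friesian skin. In Brahman it read 5.38, 4.94 and 4.97 in naive and 5.50, 5.59 and 5.77 in infested skin. All infested arrays were again above all naive ones, by a narrow gap in Brahman. BPI rose by 0.65 in Holstein-Friesian (adjusted p = 0.0432 in limma) and by 0.53 in Brahman (adjusted p = 0.0396), and both calls were lost with the replicate number as a block (adjusted p = 0.0637 and 0.0539). Leaving out 1 array kept the Holstein-Friesian call in 3 and the Brahman call in 6 of 12 fits, with adjusted p up to 0.137 and 0.134.

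Macrophage markers, CD14 among them, rose over the same arrays: 5 of 7 measured passed as higher in Holstein-Friesian and 3 of 7 in Brahman. The shares over all named genes were 3.13% and 8.50%. Their level was 1.72 to 1.91 on infested Holstein-Friesian arrays, 1.06 to 1.53 on infested Brahman arrays and -0.56 to 0.68 on naive arrays. Hepatocyte markers, which would show transcripts typical of liver, were at 0.13 to 0.49 on infested and -0.15 to 0.10 on naive arrays. Of the 9 measured, 5 also stand in the acute phase list, 1 was higher in each breed and 1 was lower in Brahman. The share lower over all named genes was 2.84% in Holstein-Friesian and 11.2% in Brahman. The part of either cell type in the LBP difference was not tested.

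**Figure D4:**
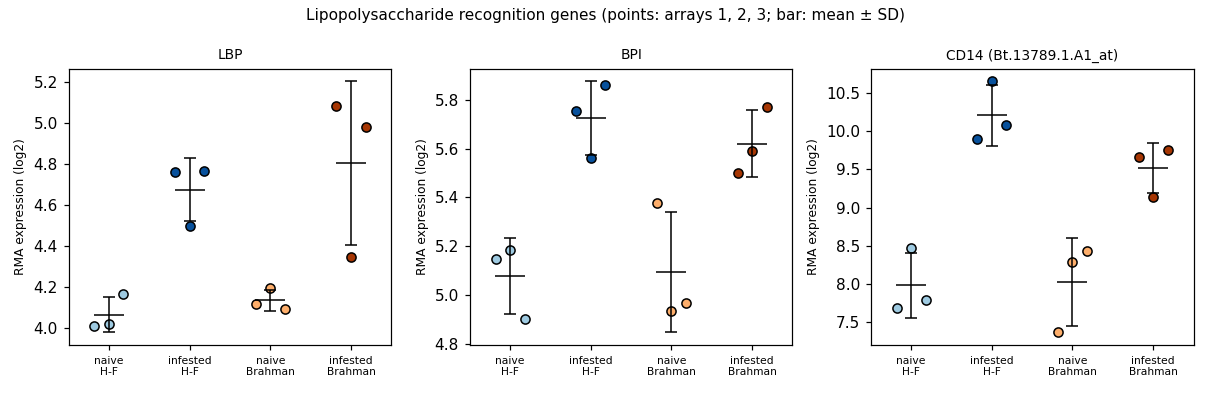
RMA expression in log2 (y axis) of LBP, BPI and CD14 in naive and infested skin of both breeds (x axis; H-F, Holstein-Friesian). Points are arrays 1, 2 and 3 from left to right, and bars are the mean ± SD of 3 arrays. For all 3 genes the 6 infested arrays lie above the 6 naive ones.

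Few of the other acute phase proteins passed when each gene was counted by its probe set of highest mean. Of 25 measured of 37 listed, 1 was higher and none lower in Holstein-Friesian, against 3.13% higher and 2.84% lower over 9155 named genes. In Brahman 2 were higher and 1 lower, against 8.50% and 11.2%. Probe sets not counted also passed in Brahman, as lower for ALB (2 of 9) and CP (1 of 3) and as higher for ITIH1 (1 of 3). The list median was 0.09 and 0.16, against -0.04 and -0.02 over all named genes. TTR, the thyroid hormone carrier transthyretin, rose by 1.32 in Holstein-Friesian (adjusted p = 0.018 in limma). TF, the iron carrier transferrin, rose by 1.92 (adjusted p = 0.0253) and SERPINA1, the inhibitor of neutrophil elastase, by 1.41 (adjusted p = 0.0141) in Brahman, the latter on both its probe sets. AHSG, a calcium-binding plasma protein that falls in the acute phase, fell by 0.60 in Brahman (log2 difference -0.60, adjusted p = 0.0123), on 3 of its 8 probe sets. The TTR call was lost without any 1 naive Holstein-Friesian array (adjusted p up to 0.0649), TF without naive Brahman 2 or 3 or infested Brahman 1 (up to 0.0984), and AHSG without naive Brahman 2 (0.0503). Of the 3 that rose, SERPINA1 is the one known as a positive acute phase protein, while TTR and TF are known to fall in that response.

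Of 28 measured antimicrobial protein genes of 53 listed, 2 were higher and 1 lower in Holstein-Friesian, and 2 were higher and 2 lower in Brahman. Over all named genes 3.13% were higher and 2.84% lower in Holstein-Friesian, and 8.50% and 11.2% in Brahman. The list medians were -0.09 and 0.19. PGLYRP1, a peptidoglycan recognition protein, fell in both breeds, with differences of -5.77 in Holstein-Friesian (adjusted p = 0.000522 in limma) and -5.50 in Brahman (adjusted p = 0.000163). LPO, lactoperoxidase, which is made by glands, fell in Brahman with a difference of -3.11 (adjusted p = 0.0401) and varied among naive Brahman arrays, at 11.26, 6.41 and 10.17. Of the gland epithelium markers, 4 of 7 were lower in each breed. AQP5 of the same list was higher, by 2.79 in Brahman (adjusted p = 0.0108 in limma) and 1.93 in Holstein-Friesian (0.093). The part of gland transcripts in the PGLYRP1 and LPO differences was not tested. RNASE6, a ribonuclease of macrophages and other leukocytes, rose by 2.36 in Holstein-Friesian on 1 of its 2 probe sets (adjusted p = 0.024 in limma). In Brahman that probe set differed by 1.25 (adjusted p = 0.0907) and did not pass, while the other, higher by 0.48, passed. ELANE, neutrophil elastase, rose by 0.68 in Brahman (adjusted p = 0.015 in limma). Its levels ran from 3.835 to 4.948 over all arrays, so the probe set was dim. With the RNA integrity index as a covariate the adjusted p of ELANE was 0.212. The LPO call held in 2 of 12 fits that left out 1 array (adjusted p up to 0.139). The Holstein-Friesian call of RNASE6 held in 8 (up to 0.098), while ELANE lost its call without naive Brahman 3 (0.0648). S100A8, S100A9 and S100A12, the calprotectin subunits and their relative, did not pass in either breed.

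Of 29 measured inducers, receptors and transcription factors of 40 listed, 1 was higher and none lower in Holstein-Friesian, and 1 was higher and 3 lower in Brahman. Each gene was counted by its probe set of highest mean. Over all named genes 3.13% were higher and 2.84% lower in Holstein-Friesian, and 8.50% and 11.2% in Brahman. The list medians were 0.22 and 0.01. CD14 was the higher one in both. A probe set other than the one counted passed as higher in Brahman for OSMR (1 of 4) and CEBPD (1 of 3). STAT3, which carries the interleukin-6 signal, fell in Brahman on 1 of its 2 probe sets (-1.38, adjusted p = 0.0462 in limma). SCARB1, a lipoprotein receptor that also binds serum amyloid A, fell in Brahman too (-1.08, adjusted p = 0.0144). CEBPB, a factor that drives acute phase genes, fell in Brahman on its brighter probe set (-1.84, adjusted p = 0.0333), and its other probe set rose (1.30). With the RNA integrity index, lowest on infested Brahman arrays, as a covariate the adjusted p was 0.821 for CEBPB, 0.838 for STAT3 and 0.0708 for SCARB1. Leaving out 1 array moved CEBPB between -2.29 and -1.16. These calls held in 4 of 12 fits that left out 1 array for STAT3 (adjusted p up to 0.124), in 8 for CEBPB (up to 0.105) and in 10 for SCARB1 (up to 0.0581, lost without naive Brahman 2 or 3). Over the 3 lists, 16 calls on probe sets of highest mean were named above. Of these, 5 passed in all 12 fits that left out 1 array: PGLYRP1 and CD14 in both breeds and SERPINA1 in Brahman. With the RNA integrity index as a covariate 8 of the 16 remained: all 5 in Holstein-Friesian, and PGLYRP1, SERPINA1 and CD14 in Brahman.

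**Figure D5:**
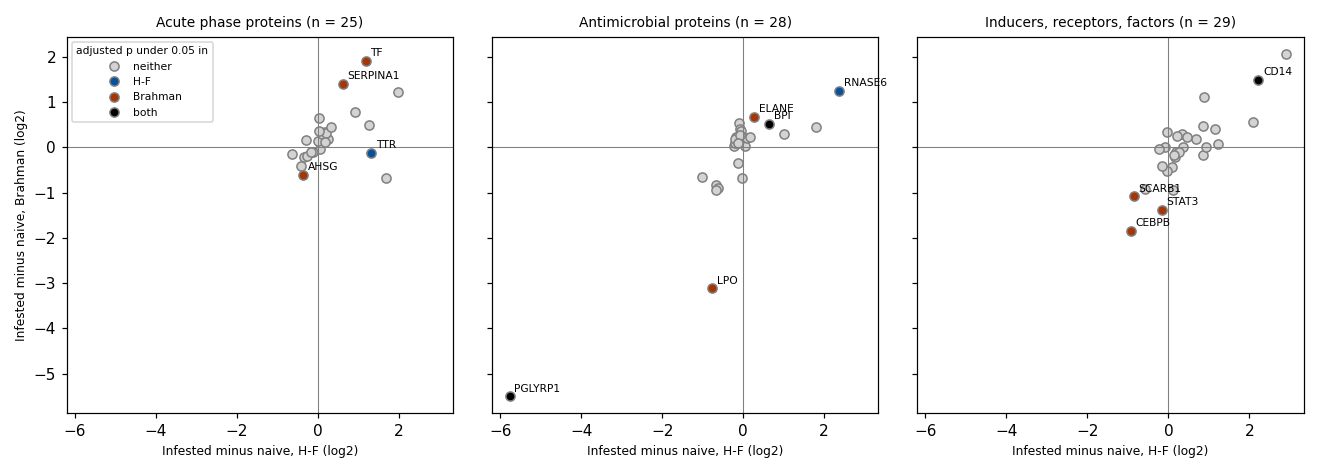
Infested minus naive difference in log2 in Holstein-Friesian (x axis) and Brahman (y axis) for the measured genes of the 3 lists, 1 point for each gene. Filled colours mark the breed in which the adjusted p was under 0.05, a difference between breeds not being tested by the colour. PGLYRP1 lies lowest in both breeds and CD14 is high in both.

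Of 7 measured cytokines in the list of inducers, 4 were highest on 1 array, infested Holstein-Friesian 2, which was singled out after its values were seen. IL6 read 9.71 there and 3.62 to 5.21 on the other 11 arrays, and IL1B 8.18 against 4.86 to 5.44. TNF read 6.36 against 5.32 to 5.85, and IL1A 8.92 against 6.98 to 8.79. LIF, OSM and IL17A lay within the range of the other arrays. On the same array SAA3 (6.28) and LAP (5.24) were the lowest of all 12, and HP (5.89) and LBP (4.50) were the lowest of the infested Holstein-Friesian arrays. LTF on its brighter probe set, at 8.17, was likewise the lowest of that group. TAP (5.70) was not, and the other LTF probe set (4.20) was the highest of it. From the lists, PTX3, an acute phase protein, read 9.63 there against 4.79 to 6.36 on the other 11 arrays. TNFAIP6 read 11.70 there against 5.42 to 8.93.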

How the data were processed

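The authors deposited log2 values, which they summarised by probe set with RMA, the robust multi-array average, as the submitters' processing notes name it. The RMA program and the chip definition file are not stated in the sources used here. That the scale is log2 was inferred from the range of the values. Without detection calls, how far a signal stood above background is unknown. Precision is limited by the number of arrays. Leaving out 112 control probe sets, 24016 were tested without a filter.

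One limma 3.58.1 model (R 4.3.3) of 4 group means over 12 arrays gave 6 comparisons (lmFit, eBayes, two-sided, 8 residual degrees of freedom). Benjamini-Hochberg adjustment ran over all probe sets of a comparison, with a threshold of 0.05. The script was tested on simulated data. Figures were drawn with matplotlib 3.10.9.

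The members, gene lists and alternatives were chosen with earlier results of these data known. Symbols came from the platform annotation. Chromosomal neighbours came from the RefSeq gene table (assembly ARS-UCD2.0). From each list, up to 6 genes of largest difference past the threshold in either breed were named, each by its probe set of highest mean. For SAA3 and LTF, whose range was at least 2 log2, the 5 probe sets of most similar profile were sought. The level of a marker list on an array averages its genes after subtraction of their naive means.

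Deviations of same-numbered arrays from their group means correlated at 0.224, 0.249 and 0.113 between naive and infested Holstein-Friesian animals, and at -0.189, -0.053 and -0.0776 between the Brahman groups. The labels give no meaning to the numbers. Between the naive groups of different breeds, same-numbered arrays correlated at 0.328, 0.0222 and 0.203. Such correlations therefore do not mark pairs. The main fit was unpaired, and the fit with the replicate number as a block was an alternative. The animals were separate, and no 2 arrays held the same values.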

Additional observations from a re-analysis of the deposited data

How the results depend on the processing

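With 3 arrays a group, counts of members called were small and moved with the processing. The share of all probe sets called was not computed for the alternative settings. A gain or loss there is therefore not shown to be particular to the members. In the fits above, 0 of 7 passed in Holstein-Friesian, 2 in Brahman, 2 as the mean of the breeds and 0 in the other comparisons. The low-signal filter left 2 of the 7 to test and gave 1 in Brahman and 1 as the mean of the breeds. Fitting only the arrays compared gave 1 in Holstein-Friesian and 0 in Brahman. Array weights gave 2 in Holstein-Friesian, 2 between the naive breeds and 3 as the mean of the breeds, with SAA3 gained (-2.03, adjusted p = 0.00715); in Brahman they again gave 2, but LBP was lost (0.0614) and LTF gained (-1.86, 0.0133). The replicate block gave 1 in Brahman, where the SAA3 adjusted p was 0.0554, and changed no other call of a member; a block within the 6 Holstein-Friesian arrays, added after seeing the data, gave 0. Without the 2 arrays of lowest RNA integrity index there was 1 in Holstein-Friesian, 1 in Brahman and 1 between the infested breeds; both Brahman calls above were lost (SAA3 0.0585, LBP 0.0591) and the 1 was LTF (-1.87, 0.0241). With the index as a covariate there was 1 in Holstein-Friesian, 0 in Brahman and 1 as the mean of the breeds. Averaging the probe sets of a gene gave 1 as the mean of the breeds, and a threshold of 0.1 gave 1 in Holstein-Friesian and 4 as the mean of the breeds. With the skeletal muscle level as a covariate, chosen after seeing the data, there was 0 in Brahman. That level is highest on the arrays of highest SAA3, so this fit cannot decide anything about SAA3. Leaving out the 2 arrays of highest muscle level, likewise chosen, gave 0 in Brahman and 1 as the mean of the breeds; those are the arrays of highest SAA3 and leave 1 naive Brahman array, so this tests nothing about SAA3. Leaving out 1 array at a time gave 0 to 2 in Holstein-Friesian, 0 to 2 in Brahman, 1 to 2 as the mean of the breeds, 0 to 1 between the naive breeds and 0 in the other comparisons. Directions turned for SAA3 in Holstein-Friesian (0.10 with the muscle covariate; -0.53 to 0.11 leaving out 1 array), for LAP in Brahman (-0.59 to 0.0737) and for LAP in Holstein-Friesian (-0.53 to 0.0421), none of which passed the test. Every other member difference followed through the settings kept its direction. Differences not given above, and those of the dimmer LTF probe set, were not followed. Apart from the filter, which tests fewer probe sets, and the fits with fewer arrays, the cause was not tested.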
